A study of Bos taurus with 12 samples.

Results

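Bovine SVC differentiated without rosiglitazone were compared with SVC differentiated without steroid hormones. The 6 libraries of rDM 0% Ros and rDM 0% HC/PR, chosen by their medium labels, were taken from the 12 libraries of the series. SVC are the stromal cells isolated from fat tissue, here subcutaneous fat of cattle, and the labels call them MSC. SVC of 3 donors (A, B and C) were each grown in both media and harvested at day 12, and mRNA was read as PCR-amplified cDNA on a Nanopore sequencer. The complete medium, rDM, combined insulin at 10 μg/mL with rosiglitazone at 5 μM and the steroids hydrocortisone (HC, 25 nM) and progesterone (PR, 17 nM). rDM 0% Ros lacked rosiglitazone and held insulin and both steroids at these doses. rDM 0% HC/PR lacked hydrocortisone and progesterone and held insulin and rosiglitazone. The contrast between these media therefore changed rosiglitazone and the steroids at once, in opposite directions, and their parts in a difference cannot be told apart from these 6 libraries alone. The other 6 libraries, of rDM and rDM 0% Ins, did not enter the main test of this contrast and are given as levels beside it, and they share the estimate of spread only in the fits said to use all 12 libraries. The series' design gives 3 isolations, each taken here to be 1 letter and 1 donor, and the labels give each letter a batch number of its own, so donor and batch coincide. The names of the deposited files also place the libraries in 2 barcoded pools. Both contrasted libraries of donor A were in pool 1 and those of donors B and C in pool 2, whereas the rDM and rDM 0% Ins libraries of donor B were in pool 1.

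Rosiglitazone is a ligand of PPARγ, the nuclear receptor that drives the differentiation of adipocytes and the genes of lipid uptake and storage. Hydrocortisone is a glucocorticoid that acts through the glucocorticoid receptor, and glucocorticoids are widely used to start adipogenic differentiation in culture. Progesterone is a steroid hormone with a nuclear receptor of its own.

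The estimated reads of rDM 0% HC/PR were 631624, 388130 and 535806 for donors A, B and C. Those of rDM 0% Ros were 537936, 333466 and 402734, so that the steroid-free library was the deeper in every donor. In the deposited CPM table (the reads of a gene scaled to the library's total, after batch correction), 3 reads were worth 4.98 to 7.98 CPM in rDM 0% HC/PR and 5.69 to 9.18 CPM in rDM 0% Ros. The limits account for counting error alone, as PCR makes several copies of 1 molecule. With every library thinned to 326729 reads, 9304, 9624 and 9051 genes had a read in rDM 0% HC/PR, and 9735, 9077 and 9765 did in rDM 0% Ros, so neither medium had more genes detected in all donors. The 10 most abundant genes took 14.3%, 13.5% and 15.8% of the reads in rDM 0% HC/PR and 16.3%, 19.6% and 16.8% in rDM 0% Ros, a higher share in rDM 0% Ros in each donor. The part of this share in the differences below was not tested. The reference table used here paired 0 of the 22372 gene identifiers and 0 of the 38030 transcript identifiers with a name, so the labelled cell type was not checked against marker genes, pathways were not counted, and genes are described by their levels. Only 4 genes are named, by identifier.

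Among the genes that passed the test, those with lower CPM in rDM 0% Ros outnumbered those with higher CPM, and their median fold change was larger. With limma on log2(CPM + 1) and the donor as a block, 80 of 8077 genes tested (0.99%) passed an adjusted p of 0.05, of which 58 (0.718%) were lower in rDM 0% Ros than in rDM 0% HC/PR and 22 (0.272%) were higher. At an unadjusted p under 0.05 there were 855, where that threshold would give 404 with no difference. The 58 genes had a median of 257 CPM in rDM 0% HC/PR and of 16 CPM in rDM 0% Ros. Their log2 fold changes ran from -9.39 to -1.12 with a median of -3.6. The median was -3.2 when the 6 genes without a read in rDM 0% Ros were set to a limit of 9.18 CPM there. This is the level of 3 reads in the shallowest library of that medium, set against the mean in rDM 0% HC/PR. The 22 genes had a median of 72.3 CPM in rDM 0% HC/PR and of 326 CPM in rDM 0% Ros, with log2 fold changes of 1.43 to 6.48 and a median of 2.1. Of the 52 lower genes with a read in both media, the fitted difference exceeded 4-fold for 47 and 16-fold for 20. Of the 21 such higher genes, it exceeded 4-fold for 11 and 16-fold for 2. Most of the 20 had a mean below 9.18 CPM in rDM 0% Ros, and some rested on 1 read there. Among the 2 higher genes, 1 rested on 3 reads in rDM 0% HC/PR. Only the 6 genes without a read were set to the limit, so the median and these folds depend on levels near it. Over all genes tested the median log2 fold change was 0.0846 and the median size of the change was 0.46. The fold changes of genes from limma are of CPM + 1 on the log2 scale and understate the change of genes with few reads. In bulk libraries, fewer cells of a type and less RNA per cell cannot be told apart.

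The count depended on the donors and on the fit. It was 219 without the donor block, 34 with a pseudocount of 0.1 and 132 with TMM scaling, each of 8077 genes tested. It was 193 of 13268 with DESeq2 on recovered reads and the medium alone. It was 31 without donor A, 157 without donor B and 16 without donor C, each from a fit with fewer libraries, and lower genes outnumbered higher genes in each, with 25 against 6, 79 against 78 and 13 against 3. Of the 80 genes, 29, 74 and 15 were called again in these fits. It was 239 of 8077 (2.96%) when all 12 libraries shared the estimate of spread, and these included 79 of the 80, although for donor B this fit spans both pools. With all libraries thinned to equal depth, which lowers the reads behind each gene, 43 of 7982 genes tested were called. All 43 were among the 80. No source used here says whether the medium was given to ComBat-seq, with which the authors corrected the table.

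**Figure D1:**
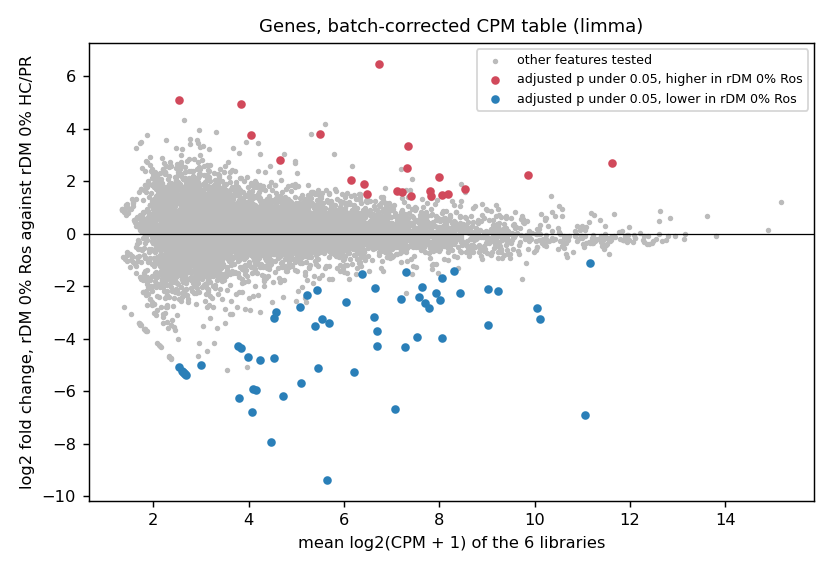
Log2 fold change of rDM 0% Ros against rDM 0% HC/PR (y axis) against the mean log2(CPM + 1) of the 6 libraries (x axis) for the 8077 genes tested, with the 22 higher and 58 lower genes called by limma in colour. The called genes below 0 reach -9.39 and lie mostly farther from 0 than those above it, which reach 6.48.

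All 80 called genes had groups that did not overlap, with all 3 libraries of one medium above all 3 of the other. Over all 8077 genes, 851 (10.5%) had every library of rDM 0% Ros above every library of rDM 0% HC/PR and 778 (9.63%) had every one below, so groups apart without regard to size were about as frequent in either direction. In this corrected table the excess of lower genes was thus in the calls and not in the count of genes whose groups were apart, whereas in the uncorrected transcripts described below the groups were apart more often toward lower levels.

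ENSBTAG00000011666 fell by 9.39 on the log2 scale (SE 0.691, adjusted p = 0.000684, limma), the largest fall among the named genes. In rDM 0% HC/PR it had 1458, 848.6 and 1722 CPM in donors A, B and C, or 1343 ± 448 (SD, n = 3). In rDM 0% Ros it had 0, 6.121 and 0 CPM. The gene was abundant in every steroid-free library and rested on 2 reads, both of donor B, without rosiglitazone. The ratio of pooled reads was 863, with a 95% interval of 239 to 7130 (exact binomial, for counting error only). Complete rDM held 2828, 3071 and 1862 CPM, above every steroid-free library. Without insulin the gene had 290, 2.233 and 128.7 CPM, so donor B was also close to 0 there and the other two donors were not.

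ENSBTAG00000020105 had 415.1, 220.8 and 451 CPM in rDM 0% HC/PR (362.3 ± 124, SD, n = 3) and 1.896, 0 and 0 CPM in rDM 0% Ros. It fell by 7.93 on the log2 scale (SE 0.511, adjusted p = 0.000394, limma). A single read was found in the 3 libraries without rosiglitazone, which set the ratio of pooled reads at 468 (95% exact binomial interval 83.7 to 18500). Its levels were 738.6, 1001 and 843.2 CPM in rDM and 338.6, 319.3 and 433.5 CPM in rDM 0% Ins. Libraries without insulin and without steroids overlapped in level, and rDM lay above both.

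ENSBTAG00000054278 rose by 6.48 on the log2 scale (SE 0.617, adjusted p = 0.00243, limma). It had 1.66, 5.321 and 85.99 CPM in rDM 0% HC/PR and 673.1, 945.7 and 1639 CPM in rDM 0% Ros. The steroid-free libraries were unequal, with donor C well above the others, and the lowest library without rosiglitazone was still above the highest of them. By donor, the differences were 7.99, 7.23 and 4.24 on the log2 scale. The level was 123.7, 708.8 and 74.47 CPM in rDM, where donor C lay below the steroid-free library of the same donor, and 1450, 1706 and 2726 CPM in rDM 0% Ins, above rDM 0% Ros in every donor.

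ENSBTAG00000004293 had no read in the 3 libraries of rDM 0% HC/PR. It had 15.17, 30.61 and 78.66 CPM in rDM 0% Ros (41.48 ± 33.1, SD, n = 3), so its mean there was at least 5.2-fold higher than the level of 3 reads in the shallowest steroid-free library. The fitted log2 fold change was 5.10 (SE 0.919, adjusted p = 0.0479, limma), just inside the threshold. It was past the threshold in 8 of the 15 fits of this contrast that gave it a value, with adjusted p between 2.47e-08 and 0.388, while the other 3 named genes were past it in all 17. The gene was detected in every library of the 3 media that held steroids, with 25.28, 182.9 and 228.2 CPM in rDM and 59.43, 80.39 and 362.4 CPM in rDM 0% Ins.

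**Figure D2:**
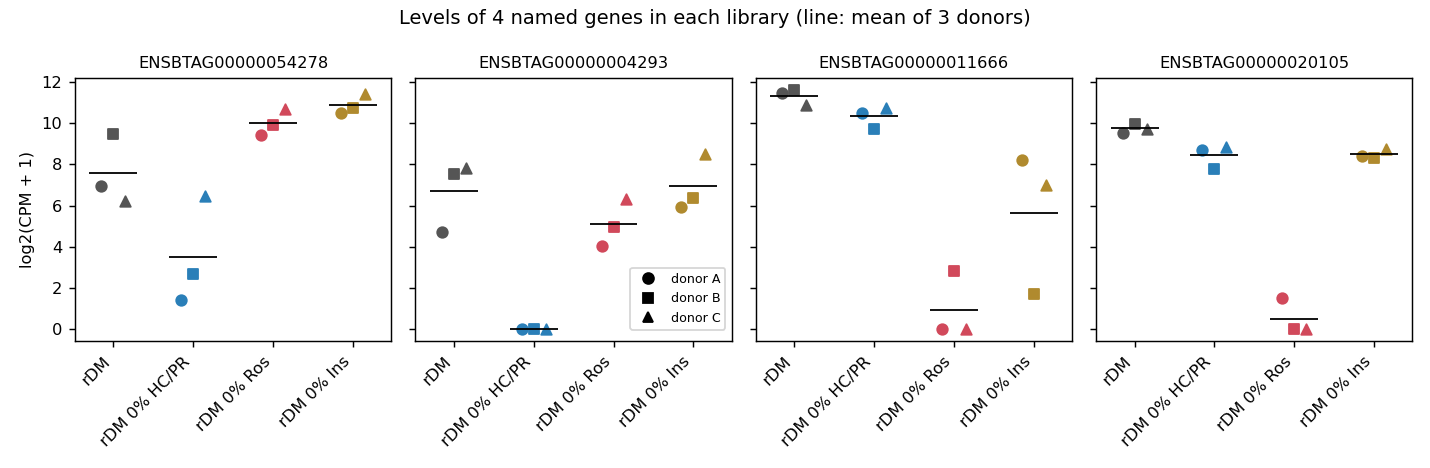
Levels of the 4 named genes as log2(CPM + 1) (y axis) in the 3 libraries of each medium (x axis), with a line at the mean and a symbol per donor. ENSBTAG00000011666 and ENSBTAG00000020105 are at or near 0 in rDM 0% Ros and ENSBTAG00000004293 is at 0 in rDM 0% HC/PR, while ENSBTAG00000054278 is lowest in rDM 0% HC/PR on average.

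The most abundant of the 58 lower genes ranked 3 by mean CPM in rDM 0% HC/PR and 619 in rDM 0% Ros. It had 21480, 24360 and 24390 CPM without steroids and 128.9, 174.5 and 325.1 CPM without rosiglitazone, with a log2 fold change of -6.904 (SE 0.262, adjusted p = 2.05e-05, limma). Each medium's libraries lay close together relative to this difference. Its mean was 32990 ± 1090 CPM in rDM and 15380 ± 5360 CPM in rDM 0% Ins (SD, n = 3 each).

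The most abundant of the 22 higher genes moved from rank 141 in rDM 0% HC/PR to rank 9 in rDM 0% Ros. It had 1269, 1524 and 1003 CPM without steroids and 8652, 9457 and 6439 CPM without rosiglitazone, a rise of 2.69 on the log2 scale (SE 0.204, adjusted p = 0.000722, limma). In rDM it was at 863.8 ± 33.5 CPM, below all 3 steroid-free libraries, and in rDM 0% Ins at 3573 ± 1750 CPM (SD, n = 3 each).

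At the other end of the 58, the smallest fall called was 1.12 on the log2 scale (adjusted p = 0.047, limma), in an abundant gene with a mean of 3363 CPM in rDM 0% HC/PR and 1549 CPM in rDM 0% Ros. The smallest rise called was 1.43 (adjusted p = 0.04, limma), from a mean of 105.1 to 278.4 CPM. The 6 genes without a read in rDM 0% Ros were modest in level, with means of 36.75 to 45.85 CPM in rDM 0% HC/PR, which made them at least 4-fold to at least 4.99-fold lower relative to the level of 3 reads in the shallowest library. Of the 80 genes, 79 had a mean of at least 20 CPM over the 6 libraries, so few calls rested on genes near the limit of detection in both media.

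The 58 lower genes together took 5.64%, 4.85% and 5.7% of the reads in rDM 0% HC/PR and 0.448%, 0.5% and 0.552% in rDM 0% Ros. The mean share was 5.4% ± 0.474 against 0.5% ± 0.052 (SD, n = 3). Without the most abundant gene it was 3.05% ± 0.569 against 0.48% ± 0.0421, so the difference in share was not carried by that gene alone. The 22 higher genes took 0.326% ± 0.0493 of the reads in rDM 0% HC/PR and 1.72% ± 0.0666 in rDM 0% Ros. A large part of this share was their most abundant gene, with a mean of 1265 CPM in rDM 0% HC/PR and 8183 CPM in rDM 0% Ros. The share without it was not taken. Both the 58 and the 22 genes were chosen by the same contrast, so the shares in these 2 media describe them and are no test. In the media that were not used to choose them, the lower genes took 8.24% ± 0.392 in rDM and 3.55% ± 0.751 in rDM 0% Ins, and the higher genes 0.313% ± 0.068 and 1.08% ± 0.38.

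**Figure D3:**
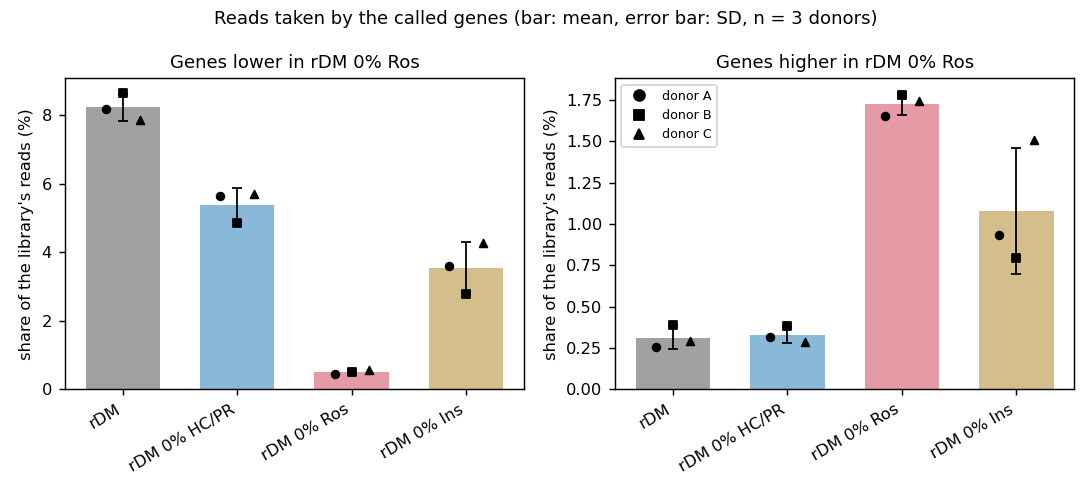
Share of each library's reads in percent (y axis) taken by the 58 lower genes and by the 22 higher genes in the 4 media (x axis), with bars at the mean of 3 donors, error bars of 1 SD and a point per donor. The lower genes take the largest share in rDM and the smallest in rDM 0% Ros, and the higher genes the largest in rDM 0% Ros.

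The levels in rDM, which held rosiglitazone and steroids, show at which end of the contrast the called genes departed from the complete medium. For each gene, rDM was called nearer to the medium whose mean log2(CPM + 1) was closer to its own. All 58 lower genes were nearer to rDM 0% HC/PR, as were 60.6% of the 3618 genes tested that had a negative log2 fold change. All 3 rDM libraries lay above all 3 of rDM 0% Ros for each of the 58, against 11.6% of all genes tested and 24.6% of the 3618. In 53 of the 58 the mean in rDM was above that in rDM 0% HC/PR, against 42.3% of the 3618, and the median level in rDM over the 58 was 400 CPM. Of the 22 higher genes, 18 were nearer to rDM 0% HC/PR, against 67.9% of the 4459 genes tested with a positive log2 fold change. In 11 of the 22 the mean in rDM was below that in rDM 0% HC/PR, against 47.1% of the 4459. For 18 of the 22 all rDM libraries lay below all of rDM 0% Ros, against 17.1% of all genes tested and 29.2% of the 4459. Genes chosen for a wide gap between the contrasted media are more easily apart from rDM 0% Ros in rDM than other genes, so these shares are a description. Leaving out each donor or using a pseudocount of 0.1 or 10 put rDM nearer to rDM 0% Ros for 3 to 5 of the 22 and for 0 of the 58. Without donor B, whose rDM library was in the other pool, these counts were 3 and 0.

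The 4 higher genes for which rDM was nearer to rDM 0% Ros were among the first 5 by fitted log2 fold change. They included ENSBTAG00000054278 and ENSBTAG00000004293, whose place in this order rests on a fitted fold over 0 reads. The gene at the third place had 1.66, 5.321 and 0 CPM in rDM 0% HC/PR, 85.32, 85.7 and 65.55 CPM in rDM 0% Ros, and 29.8, 12.09 and 146.5 CPM in rDM (log2 fold change 4.95, adjusted p = 0.0106, limma). The gene at the fifth place had 0, 7.981 and 9.555 CPM, 36.03, 73.46 and 81.28 CPM, and 32.51, 16.62 and 21.62 CPM in the same order (log2 fold change 3.74, adjusted p = 0.0351, limma). In both genes every rDM library lay above every steroid-free library. The gene at the fourth place differed from them, since its mean was 11.41 CPM in rDM 0% HC/PR, 192.6 CPM in rDM 0% Ros and 4.915 CPM in rDM.

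The libraries without insulin, which held rosiglitazone and steroids, were read in the same way. Their mean was between those of rDM 0% Ros and rDM 0% HC/PR for 48 of the 58 lower genes and 15 of the 22 higher ones, against 31.4% and 33.2% of all genes tested of the same sign. A wide gap between the contrasted media holds other levels more easily, so these counts are also a description. The mean was nearer to rDM 0% HC/PR for 47 of the 58, against 61.7% of the genes of that sign. Every rDM 0% Ins library was above every rDM 0% Ros library for 49 of the 58, against 11.8% of all genes tested and 20.7% of those of that sign. Every one was below for 9 of the 22 higher genes, against 8.01% of all genes tested and 12.8% of those of that sign. Of the 22, 16 were nearer to rDM 0% Ros, and 5 of them were beyond it, ENSBTAG00000054278 among these, while 41.6% of the genes of that sign were nearer to rDM 0% HC/PR and 39.3% were beyond rDM 0% Ros. With each donor left out or a pseudocount of 0.1 or 10, 13 to 16 of the 22 were nearer to rDM 0% Ros. Of the 58, 8 to 14 were nearer to it in these settings. One lower gene was below rDM 0% Ros without insulin, with means of 91.83 CPM in rDM 0% HC/PR, 21.38 CPM in rDM 0% Ros, 105.9 CPM in rDM and 19.57 CPM in rDM 0% Ins. Another had no read in either rDM 0% Ros or rDM 0% Ins, against means of 40.44 CPM in rDM 0% HC/PR and 30.43 CPM in rDM.

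**Figure D4:**
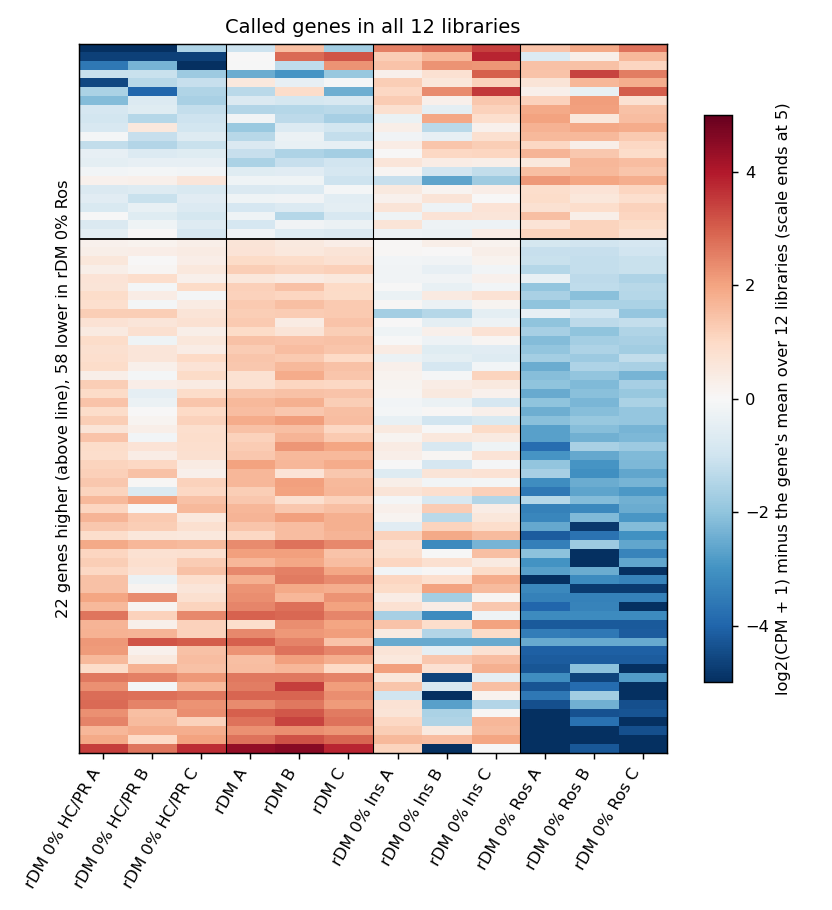
Log2(CPM + 1) minus the gene's mean over 12 libraries (colour, scale ending at 5 in either direction) for the 22 higher genes above the line and the 58 lower genes below it (rows, ordered by log2 fold change) in each library (columns). In the lower genes rDM is red like rDM 0% HC/PR and rDM 0% Ros is blue, while rDM 0% Ins is in between for most rows.

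The same reading was made over all genes tested, without the calls. In 1108 genes (13.7%) all 3 libraries of rDM 0% Ros lay outside the range of both rDM and rDM 0% HC/PR on the same side, 562 above and 546 below. In 248 genes (3.07%) all 3 libraries of rDM 0% HC/PR lay outside the range of both rDM and rDM 0% Ros, 114 above and 134 below. More genes thus set the medium without rosiglitazone apart from both other media than set the medium without steroids apart. The difference between these shares was not tested, nor was the part of the library pool, which for donor B differed between rDM and the contrasted media.

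The differences between the media varied between donors. Over the 8077 genes, the differences between the media correlated across genes with Pearson's r of 0.181 between donors A and B, 0.294 between A and C, and 0.0864 between B and C. In the 4101 genes with a mean of at least 20 CPM these values were 0.352, 0.537 and 0.205, with donors A and C the most alike in each set. Genes are not independent replicates, and each pair of donors shares the batch correction. All 3 donors had the same sign in 1469 of the 8077 genes toward higher and 1044 toward lower levels in rDM 0% Ros. Unrelated signs also agree in part of the genes, so these counts are a description. The median difference was 0.17 in donor A, -0.24 in donor B and 0.4 in donor C on the log2 scale, so that donor B was shifted the other way from A and C. Within a medium, libraries of different donors correlated at 0.888 to 0.91 in rDM 0% Ros and at 0.868 to 0.917 in rDM 0% HC/PR.

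The estimated reads per transcript, which had not been batch-corrected, gave no calls in the test chosen for them. With edgeR's quasi-likelihood test and the donor as a block, 0 of 3991 transcripts (0%) passed an adjusted p of 0.05, and the lowest adjusted p was 0.0887. At an unadjusted p under 0.05 there were 363, where that threshold would give 200 with no difference. Of the 363, 178 were lower and 185 higher in rDM 0% Ros. DESeq2 with the same block called 61 of 17809 transcripts (0.343%), 48 lower and 13 higher. With all 12 libraries in the edgeR fit, 74 of 5372 (1.38%) were called, 64 lower and 10 higher. Groups did not overlap for 181 transcripts toward higher (4.54%) and 293 toward lower levels (7.34%) in rDM 0% Ros. A transcript could also pass edgeR's filter through 1 medium alone, which then fixed this. All 3 libraries of rDM 0% Ros were apart from those of rDM and rDM 0% HC/PR in 335 transcripts (8.39%), 229 below and 106 above. Those of rDM 0% HC/PR were apart from rDM and rDM 0% Ros in 16 transcripts (0.401%).

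The 10 largest falls, among transcripts that averaged at least 20 CPM over the 6 libraries and moved the same way in all donors, included several whose levels were far apart between the media in every donor, though none passed the adjusted threshold with edgeR. A transcript of 754 bases had 23650, 21290 and 22510 CPM in rDM 0% HC/PR and 251, 581.8 and 57.11 CPM in rDM 0% Ros (log2 fold change -6.71, edgeR adjusted p = 0.0912). A transcript of 1398 bases had 1715, 827 and 1418 CPM in rDM 0% HC/PR and 0, 8.996 and 0 CPM in rDM 0% Ros (log2 fold change -8.94, edgeR adjusted p = 0.0912). A transcript of 3048 bases, with the lowest adjusted p, had 314.8, 203.5 and 647.6 CPM in rDM 0% HC/PR and 1.859, 0 and 0 CPM in rDM 0% Ros (log2 fold change -8.59). In all 3 transcripts the lowest steroid-free library was far above the highest library without rosiglitazone.

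Among the 10 largest rises by the same rule, the donors differed more in level in the transcripts given here. A transcript of 569 bases had 1.71, 228.5 and 43.37 CPM in rDM 0% HC/PR and 208.8, 4019 and 838.4 CPM in rDM 0% Ros (log2 fold change 4.59, edgeR adjusted p = 0.0912). It was higher without rosiglitazone in each donor, yet the groups overlapped, since donor B was the highest in both media. A transcript of 2444 bases had 1001, 3172 and 468.3 CPM against 5088, 16590 and 4795 CPM (log2 fold change 2.68, edgeR adjusted p = 0.0912), again highest in donor B in both media and with groups that did not overlap. None of these transcripts is matched to a gene above, because no table used here pairs them.

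**Figure D5:**
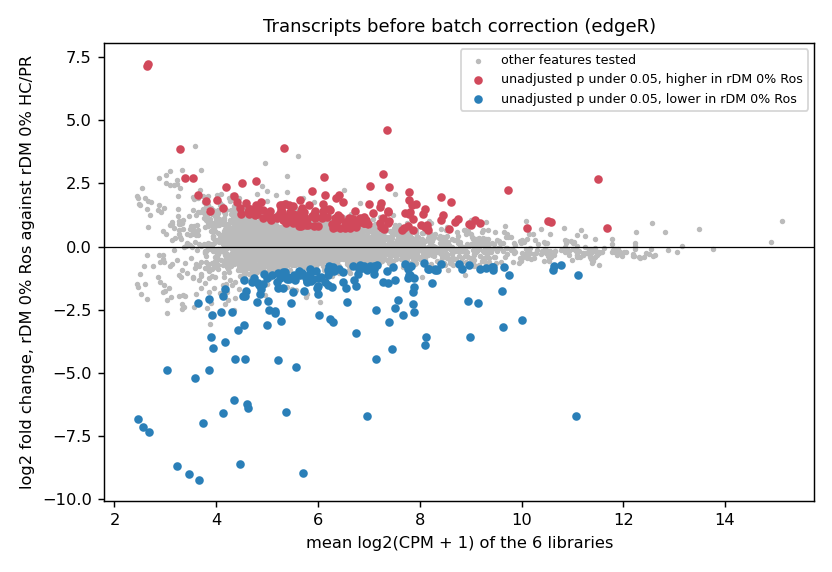
Log2 fold change of rDM 0% Ros against rDM 0% HC/PR from edgeR (y axis) against the mean log2(CPM + 1) of the 6 libraries (x axis) for the 3991 transcripts tested, with those at an unadjusted p under 0.05 in colour. The lower transcripts reach -9.23 and include more with changes far from 0 than the higher ones do, and none passed the adjusted threshold.

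The median length was 1860 bases over all transcripts tested. It was 1720 bases in the 178 lower and 2160 bases in the 185 higher transcripts at an unadjusted p under 0.05, 1860 and 1920 bases in the 48 lower and 13 higher ones called by DESeq2, and 1820 and 2000 bases in the 64 lower and 10 higher ones called by edgeR with 12 libraries. The middle ranges of lower and higher transcripts overlapped in each of these sets, and the differences in length were not tested. The transcripts that the reads were assigned to had a median length of 967, 1172 and 1011 bases in rDM 0% HC/PR and of 1049, 1147 and 1187 bases in rDM 0% Ros, which was longer without rosiglitazone in donors A and C and shorter in donor B. The part of this difference between libraries in the transcript results was not tested.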

How the data were processed

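The authors made cDNA libraries by PCR from SVC of 3 donors, sequenced them on a Nanopore device, mapped reads to the ARS-UCD1.2 transcriptome with Minimap2 and quantified them with Salmon. They deposited estimated counts per transcript without batch correction, and a gene-level CPM table, for which tximport and then ComBat-seq had been used. Versions of Minimap2, Salmon, tximport and ComBat-seq, and the settings of ComBat-seq, are not given in the sources used here. Of the deposited CPM values, 100% were whole multiples of 1 read, within 1.89e-05 reads, and 0 columns lacked a mapped library. The reads recovered so were 94.7% to 98% of the estimated reads in the 6 libraries.

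Genes that reached 5 CPM in at least 3 of 6 libraries were tested with limma 3.58.1 (R 4.3.3) on log2(CPM + 1) with donor as a block. Estimated counts were rounded and tested with edgeR 4.0.16. Threshold was a Benjamini-Hochberg adjusted p of 0.05. DESeq2 1.42.0 was an alternative. The same letter was taken to mark the same isolation and donor and has 1 batch number per the labels, and same-letter libraries deviated together in uncorrected transcripts, with correlations of 0.499, 0.209 and 0.213 for A, B and C. In the batch-corrected genes, which limma tested, the same correlations were 0.0316, -0.356 and -0.247, so there the block rests on the shared donor and not on these values. The p-values of the blocked fits of 6 libraries set the mean difference between the media against how far it varied between the 3 donors. Each donor was also its own batch. In limma and edgeR this spread was drawn toward that of other features.

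The rule for named genes was the 10 largest rises and falls with a symbol, at a mean of at least 20 CPM and with the same direction in all donors, or 2 rises and 2 falls by identifier where no symbols could be paired. The latter applied, so gene lists, cell type markers and sequences were not analysed here. The other genes described without an identifier (the most abundant, individual transcripts, further large rises, the smallest changes, the exceptions) were chosen after their values were seen. Members, lists and tests were chosen with earlier results of these data known.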

Additional observations from a re-analysis of the deposited data

How the results depend on the processing

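For the 80 genes called of 8077 tested, the count was between 72 and 117 in the first fits given here. They kept as many as 80 and as few as 67 of the 80. The count was 99 of 8077 with a pseudocount of 10, 112 of 13271 with no filter and 72 of 4104 with a mean of at least 20 CPM. With edgeR on recovered reads and the block it was 112 of 3957, or 117 of 3957 with DESeq2's size factors. DESeq2 with the block gave 97 of 13271. These fits tested different numbers of genes, so like counts are unlike shares. The count was 219 without the replicate block, 239 with all 12 libraries, 34 with a pseudocount of 0.1 and 132 with TMM scaling, each of 8077. It was 36 of 8077 at an adjusted p of 0.01 and 43 of 7982 at equal depth. EdgeR on recovered reads without a filter gave 270 of 13271, and DESeq2 with the medium alone 193 of 13268. Leaving out the pair of 1 donor gave 16 to 157. Lower genes outnumbered higher ones in every one of these fits. For transcripts, edgeR called 0, also with DESeq2's size factors, at an adjusted p of 0.01 and without each donor. At an unadjusted p under 0.05 there were 169 of 3779 without donor A, 504 of 4633 without B and 319 of 4203 without C. With no difference between the media, that threshold would give 189, 232 and 210, so the count without donor A was below this. EdgeR called 7 of 3991 without the replicate block, 74 of 5372 with all 12 libraries and 212 of 17809 without a filter. DESeq2 with the block called 61 of 17809. Alternatives chosen after seeing the data gave 66 of 3991 with DESeq2 on the transcripts edgeR tested. With limma they gave 32 of 8195 on 6 libraries and 109 of 8195 on 12. None of the 4 named genes changed sign, and 3 stayed past the threshold in all 17 fits. ENSBTAG00000004293 missed it in 7 of 15, those with a pseudocount of 0.1 or 10, a mean of at least 20 CPM, equal depth and each donor left out. The causes were not tested. At 3 reads a level was up to 9.18 CPM in rDM 0% Ros, so lower levels could not be told from 0.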
